A study of Mus musculus with 2 samples.

Results

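The 9 genes described here encode 3 repressors of fetal or embryonic globin genes (Bcl11a, Zbtb7a and Sox6), both LIN28 proteins (Lin28a and Lin28b), the 3 IGF2BP proteins (Igf2bp1, Igf2bp2 and Igf2bp3) and the chromatin protein HMGA2 (Hmga2). They were chosen by name and matched by gene identifier, 9 of 43346 Ensembl genes in each table, and the rule for choosing them uses no measured value. Total RNA was sequenced from G1E-ER4, an immortalized mouse erythroid line labelled C57BL/6J, male, postnatal and 0 days old. All libraries were of 1 group, cells treated with 10 nM 17β-estradiol for 24 h, in 2 biological replicates. The line lacks its own working Gata1 and carries a restored GATA1 that acts on estradiol, so every value below comes from induced cells of a single line. No untreated group was analysed here, so the values are levels and not responses to estradiol.

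BCL11A and ZBTB7A are zinc finger proteins that bind the beta-globin locus and hold its early genes silent, in mouse the embryonic genes Hbb-y and Hbb-bh1 and in human the gamma-globin genes. LIN28 proteins bind let-7 microRNA precursors and block their maturation, and let-7 in turn lowers many mRNAs that have matches to its seed in their 3′ UTR. The IGF2BP proteins bind and stabilise mRNAs, and Igf2bp1, Igf2bp2, Igf2bp3, Lin28b and Hmga2 are known let-7 targets. In human erythroblasts, raised LIN28B or IGF2BP1 is known to lower BCL11A protein and to raise fetal hemoglobin.

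The sequences that tie these genes together are shown first. The RefSeq tables (build GRCm38.p6) held 12 hairpins of the let-7 family and 9 mature names from their 5′ arms. All 9 had 1 shared seed, bases 2 to 8, printed in capitals in 5 of them, which differ in the bases after the seed.
mmu-let-7a-5p: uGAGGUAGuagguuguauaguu
mmu-let-7b-5p: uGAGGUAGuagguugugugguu
mmu-let-7d-5p: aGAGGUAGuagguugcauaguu
mmu-let-7g-5p: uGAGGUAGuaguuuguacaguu
mmu-miR-98-5p: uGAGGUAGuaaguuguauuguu

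LIN28 is known to contact a GGAG motif in the loop of let-7 precursors. The 4 letters GGAG, read on the RNA strand only, stood between the mature arms of 9 of the 12 let-7 hairpins, against 7 of 633 other hairpins with both arms listed, or 1.11%. They were not in the loops of Mirlet7b, Mirlet7c-2 and Mir98. The motif was already known from let-7 precursors, and the other hairpins were not matched for loop length. The contrast is therefore no independent test. The loops of 3 hairpins with the motif, in capitals, and of 1 without it are shown because this motif is where the protein and its precursors meet.
Mirlet7a-1, hairpin chr13:48538179-48538272, minus strand: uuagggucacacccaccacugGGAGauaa
Mirlet7c-1, hairpin chr16:77599657-77599750, plus strand: uagaguuacacccugGGAGuuaa
Mirlet7f-2, hairpin chrX:151912346-151912428, plus strand: uuagggucauaccccaucuuGGAGauaa
Mirlet7c-2, hairpin chr15:85706603-85706697, plus strand: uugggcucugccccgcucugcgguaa

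The level of let-7 itself could not be read from these libraries. The 10 let-7 family entries of the gene tables were 83 to 108 nt long, and none had more than 9.57 nt of effective length, the length left after the fragment size is allowed for.

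The 3′ UTRs of the 9 genes were searched on the sense strand for the match to bases 2 to 8 followed by A (CTACCTCA, the 8mer), for the match to bases 2 to 8 alone (CTACCTC, 7mer-m8) and for the match to bases 2 to 7 followed by A (TACCTCA, 7mer-A1). Each position counted once, under its longest match. In the longest annotated UTR of each gene, Hmga2 held 7 matches, Lin28b 5, Igf2bp1 5, Lin28a 2, Igf2bp2 2 and Igf2bp3 1. Bcl11a and Zbtb7a held 0, and Sox6 held 1 7mer-A1 in a transcript that the quantification did not include and 0 in those it did. Of 21021 genes with a 3′ UTR, 14.9% held a match and 3.06% an 8mer. The windows below put an 8mer match, in capitals, in 10 bases on either side for 6 of the genes, all on the minus strand of GRCm38 and written in the sense of the mRNA.
Lin28b, chr10:45381012-45381039: ggcgggaagtCTACCTCAtgcaagcaca
Lin28a, chr4:134005179-134005206: gcctgttgaaCTACCTCAtttttgccga
Igf2bp1, chr11:95961768-95961795: gcgaagtaaaCTACCTCAaggtgtgaag
Igf2bp2, chr16:22059463-22059490: caaataaaagCTACCTCAggtgtttttt
Igf2bp3, chr6:49086777-49086804: ttttactcaaCTACCTCAggtattcagt
Hmga2, chr10:120364214-120364241: cattcaatttCTACCTCAgcatcagttg

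**Figure D1:**
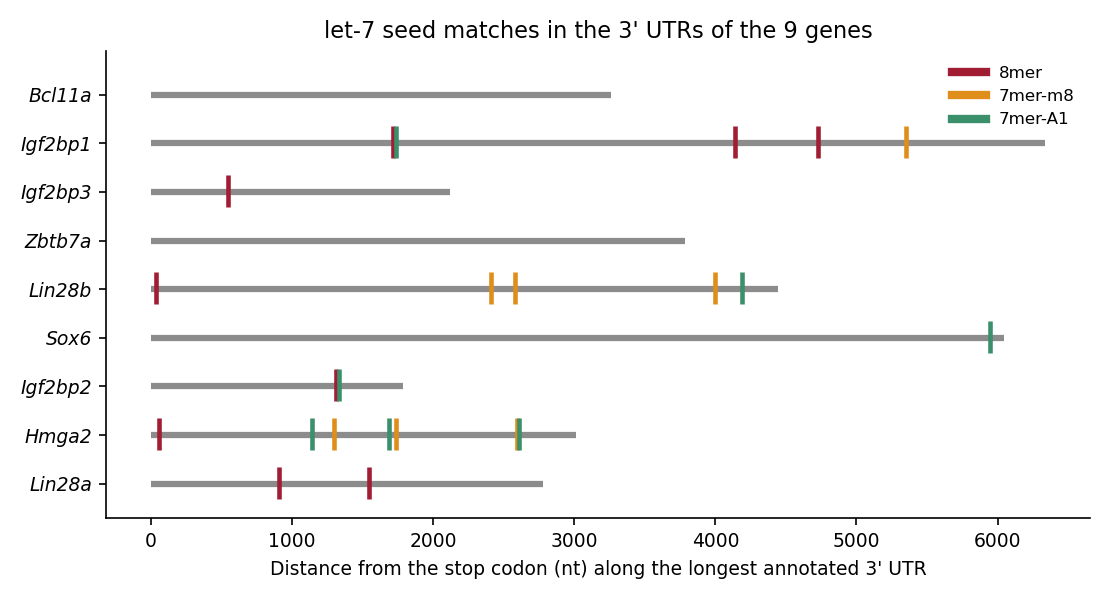
Matches to the let-7 seed along the longest annotated 3′ UTR of each gene, with distance from the stop codon in nt on the horizontal axis, grey lines for the UTR and coloured ticks for the match type (8mer, 7mer-m8, 7mer-A1). Hmga2 carries 7 ticks, Lin28b and Igf2bp1 carry 5 each, and Bcl11a and Zbtb7a carry none.

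Longer UTRs hold more matches by length alone, so each gene was read beside UTRs within 20% of its own length. Hmga2 has 7 matches in 3014 nt of Hmga2-203, and 7 also in the form with its reads, Hmga2-201, and 3 of 2246 UTRs of like length (0.134%) held as many. For the 5 of Lin28b in 4445 nt it was 5 of 1271 (0.393%), and for the 5 of Igf2bp1 in 6337 nt it was 5 of 564 (0.887%). The 2 of Lin28a stood at 4.4%, the 2 of Igf2bp2 at 2.69% and the single 8mer of Igf2bp3 at 23.0%. Of UTRs like that of Bcl11a (3263 nt) 28.7% held at least 1 match, and of UTRs like that of Zbtb7a (3787 nt) 32.8%. Igf2bp1 held 3 8mers, at 1715, 4136 and 4730 nt from the stop codon, and Lin28a held 2. Lin28b and Hmga2 each had 1 8mer close behind the stop codon, starting at 36 and 58 nt. Hmga2, Lin28b and the IGF2BP genes were already known let-7 targets, so these shares are no independent test of that link. A match describes letters in the UTR, and binding by let-7 was not measured.

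Replicate 1 held 50277914 expected counts and replicate 2 held 47478888. Nuclear protein-coding genes took 28.6% and 29.3% of them. The ribosomal RNA-related genes Gm42418 and Gm26917 took 55.7% and 54.2%, so TPM values (transcript abundance per length, scaled to the same sum in each library) of coding genes are low on an absolute scale. Rescaling to nuclear protein-coding genes alone multiplies them by 4.41 and 4.37. All 8 erythroid markers listed were detected (TPM 1 or above in both libraries), against 40.2% of nuclear protein-coding genes. Their summed TPM was 1467.69 and 1497.53, of which Hbb-bs alone gave 993.85 and 1008.37. Of 18 markers of other cell types 3 were detected and 8 had no read in either library, with a summed TPM of 52.72 and 49.31. The highest of these were Cpa3 (27.4 ± 0.912 TPM), Pf4 (14.8 ± 5.95), Itga2b (6.35 ± 0.841) and Ms4a2 (1.02 ± 0.134; SD, n = 2), which mark mast cells or megakaryocytes. Cpa3 stood near the erythroid marker Klf1 (26.9 ± 2.98 TPM) and above Alas2 (10.7 ± 0.141) and Epor (8.955 ± 0.0212; SD, n = 2). The other erythroid markers stood higher than Cpa3. The part of mast cells or megakaryocytes in the levels below was not tested.

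Detection was set at TPM 1 or above, reached in each library. By that measure 6 of the 9 genes were detected, beside 40.2% of 21461 nuclear protein-coding genes. Those were Bcl11a, Igf2bp1, Igf2bp3, Zbtb7a, Lin28b and Sox6, and Igf2bp2, Hmga2 and Lin28a were not. After rescaling to coding genes 7 passed, with Igf2bp2 added (1.014 and 3.018), and at a threshold of 5 TPM 4 passed, without Lin28b and Sox6. Summed TPM of the 9 genes was 71.84 in replicate 1 and 76.14 in replicate 2. The repressors made up 34.24 and 35.03 of it, the IGF2BP genes 33.60 and 36.03, and the LIN28 genes 3.70 and 4.88. In bulk RNA, a low level from fewer expressing cells and one from less RNA per cell cannot be told apart.

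**Figure D2:**
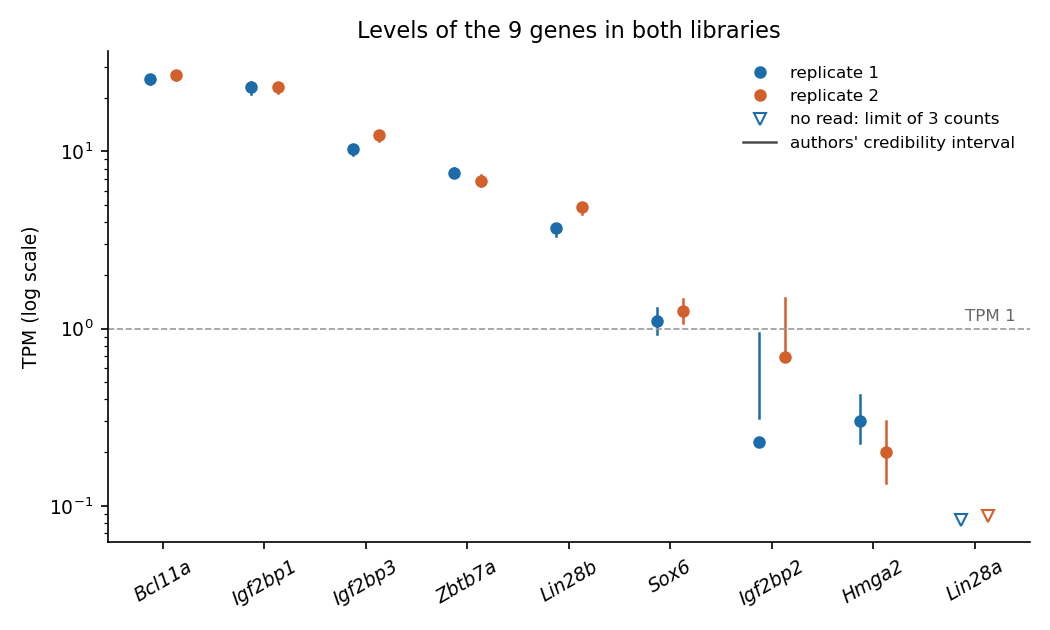
TPM of the 9 genes on a log axis, with blue points for replicate 1, orange points for replicate 2 and vertical lines for the authors' credibility interval. Bcl11a (25.61 and 26.97) and Igf2bp1 (23.04 in both) stand highest, Sox6 lies just above the dashed line at TPM 1, and open triangles mark the limit of 3 counts for Lin28a, which had no read.

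Among the repressors, Bcl11a was the highest. Bcl11a (ENSMUSG00000000861.11, chr11:24078056-24174123, plus strand, mm10) had 25.61 TPM in replicate 1 and 26.97 TPM in replicate 2, from 3532 and 3635 counts. Its mean of 26.3 ± 0.962 (SD, n = 2) ranked 1675 of 21461 nuclear protein-coding genes, where the median was 0.025 over all and 9.76 over those detected. Next to it in that order stood Aatf (26.3 ± 0.170 TPM) and Ect2 (26.3 ± 4.23 TPM; SD, n = 2). Both libraries were alike for Bcl11a, and the log2 ratio of replicate 2 over replicate 1, on TPM + 0.1, was 0.07.

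Zbtb7a encodes LRF, the other main repressor of gamma-globin genes in human adult erythroblasts. Zbtb7a (ENSMUSG00000035011.11, chr10:81135220-81152995, plus strand) had 7.52 and 6.81 TPM, from 1425 and 1224 counts. That placed it between Rnf169 and E2f1, at rank 5192. Bcl11a took 77.3% and 79.8% of the summed TPM of the pair, a mean of 78.6% ± 1.80 (SD, n = 2), and stood 3.68 ± 0.392 times above Zbtb7a. Sox6 encodes a SOX protein that works with BCL11A on globin genes and in red cell maturation. Sox6 (ENSMUSG00000051910.9, chr7:115470872-116038796, minus strand) had 1.11 and 1.25 TPM, from 197 and 235 counts. Both values lie close to the threshold of 1, and the authors' credibility interval spans it in replicate 1 (0.932 to 1.31) but not in replicate 2 (1.08 to 1.46). Bcl11a TPM was 22.3 ± 1.06 times and Zbtb7a TPM 6.11 ± 0.938 times that of Sox6.

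Of the LIN28 pair, reads fell on Lin28b alone. Lin28b (ENSMUSG00000063804.7, chr10:45376620-45486395, minus strand), which blocks let-7 maturation largely in the nucleus, had 3.70 and 4.88 TPM, from 645 and 808 counts. The exact 95% Poisson intervals of those counts, 596 to 697 and 753 to 866, do not overlap. Replicate 2 was the higher library, with a log2 ratio of 0.39, close to the SD of 0.37 over the 8808 nuclear protein-coding genes that averaged at least 1 TPM. Lin28a (ENSMUSG00000050966.5, chr4:134003330-134018841, minus strand), the cytoplasmic paralog of pluripotent cells, had 0 counts in both libraries. With a floor of 3 counts, a count of 0 allows up to 0.0830 TPM in replicate 1 and 0.0876 in replicate 2. The authors' credibility interval for Lin28a reaches higher, from 0.0304 to 0.591 TPM and from 0.0382 to 0.622 TPM. The pluripotency markers Pou5f1, Sox2 and Esrrb had no read either, and Nanog had 6 and 2 counts.

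Igf2bp1 led the IGF2BP family, with Igf2bp3 next and Igf2bp2 at the edge of measurement. Igf2bp1 (ENSMUSG00000013415.5, chr11:95957163-96005940, minus strand), a fetal mRNA-binding protein, had 23.04 TPM in both libraries, from 4712 and 4927 counts. It ranked 1939, between Ddx21 and Ap3s1, with 101.2 ± 0.593 TPM after rescaling to coding genes (SD, n = 2). Igf2bp3 (ENSMUSG00000029814.8, chr6:49085223-49214957, minus strand), the oncofetal paralog, had 10.33 and 12.30 TPM, from 1440 and 1628 counts. Replicate 2 was the higher for Igf2bp3, with a log2 ratio of 0.25, and its neighbours in the order of mean TPM were Trim37 and Git1. Igf2bp2 (ENSMUSG00000033581.12, chr16:22059009-22163299, minus strand), the family member best known in adult tissue and metabolism, had 0.23 and 0.69 TPM.

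The 24 and 55 counts behind Igf2bp2 have exact 95% Poisson intervals of 15.4 to 35.7 and 41.4 to 71.6, which do not overlap. The authors' credibility intervals for it, 0.311 to 0.944 and 0.699 to 1.49, lie above its own TPM in both libraries. Within the family, Igf2bp1 held 68.6% and 63.9% of summed TPM, Igf2bp3 30.7% and 34.1%, and Igf2bp2 0.685% and 1.92%. Igf2bp1 stood 2.23 times above Igf2bp3 in replicate 1 and 1.87 times in replicate 2. Summed IGF2BP TPM was 9.08 and 7.38 times summed LIN28 TPM, a mean of 8.23 ± 1.2 (SD, n = 2).

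Hmga2 (ENSMUSG00000056758.10, chr10:120361275-120476469, minus strand) encodes an AT-hook protein of fetal stem cells. It had 0.30 and 0.20 TPM, from 36 and 22 counts, with exact 95% Poisson intervals of 25.2 to 49.8 and 13.8 to 33.3 that overlap. Lin28b TPM was 12.3 times that of Hmga2 in replicate 1 and 24.4 times in replicate 2. Of the 9 genes, Hmga2 held the most let-7 matches and had few reads. Igf2bp1 and Lin28b, with 5 matches each, and Igf2bp3, with 1, were detected in both libraries. Lin28a and Igf2bp2, with 2 matches each, were not. Bcl11a, Zbtb7a and Sox6, with 0 matches in their quantified forms, were detected. A link between matches and levels was not tested.

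The order of mean TPM was Bcl11a, Igf2bp1, Igf2bp3, Zbtb7a, Lin28b, Sox6, Igf2bp2, Hmga2 and Lin28a. Bcl11a was 1.11 and 1.17 times Igf2bp1, Igf2bp3 was 1.37 and 1.81 times Zbtb7a, and Zbtb7a was 2.03 and 1.39 times Lin28b. Lin28b was 3.33 and 3.90 times Sox6. The values of the 2 libraries did not overlap between neighbours, except for Igf2bp2 and Hmga2, where Hmga2 was higher in replicate 1 and Igf2bp2 in replicate 2. In replicate 1 the authors' credibility intervals of Bcl11a (24.01 to 26.30) and Igf2bp1 (21.12 to 24.50) overlap. The order was the same in FPKM and after rescaling to coding genes. Both multiply all TPM values of a library by the same factor, so they could not change the order within a library. On expected counts, which are larger for longer transcripts, Igf2bp1 (4712 and 4927) stood above Bcl11a (3532 and 3635), and on posterior mean TPM Lin28a stood above Hmga2.

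**Figure D3:**
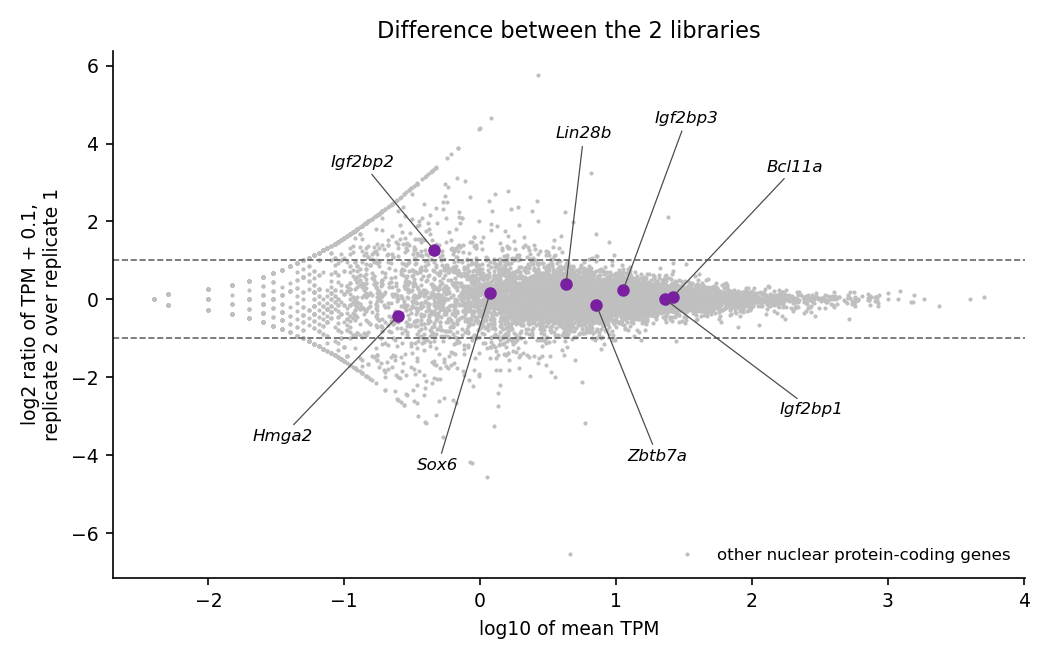
Log2 ratio of TPM + 0.1, replicate 2 over replicate 1, against the log10 of mean TPM, with grey points for other nuclear protein-coding genes, purple points for the 8 genes with reads and dashed lines at 2-fold. Igf2bp2 (1.26) lies past the upper line and Hmga2 (−0.42) inside the lower one, while Igf2bp1 (0.00) and Bcl11a (0.07) lie near 0.

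Igf2bp2 was the 1 gene of the 9 that differed 2-fold or more between the libraries, with a log2 ratio of 1.26 on TPM + 0.1 (0.46 on TPM + 1, under 2-fold), beside 7.17% of 11374 nuclear protein-coding genes with any count. At its own level, a mean TPM of 0.1 to 1, the share was 33.7% of 1283 genes, and among the 8808 genes averaging at least 1 TPM it was 1.95%. Zbtb7a was the only detected gene of the 9 that was lower in replicate 2, with a log2 ratio of −0.14.

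The transcript tables divide each gene among its annotated forms, and Bcl11a had counts on 6 of them, more than any other of the 9 genes. Bcl11a-202, which codes for 835 amino acids, the length of the XL form with its full set of zinc fingers, held 39.97% and 43.73% of the gene's TPM and 56.1% and 59.7% of its counts. The short Bcl11a-204 (191 codons) held 25.6% and 21.9% of TPM from 299 and 256 counts, and Bcl11a-203 (243 codons) held 9.08% and 10.9%. Bcl11a-201 (773 codons, the length of the L form) held 3.30% and 2.81%. A retained-intron form, Bcl11a-205, held 20.4% and 19.1% from 993 and 932 counts. All 6 forms had counts in both libraries, and the 4 coding forms together gave 20.7 ± 1.01 TPM (SD, n = 2).

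**Figure D4:**
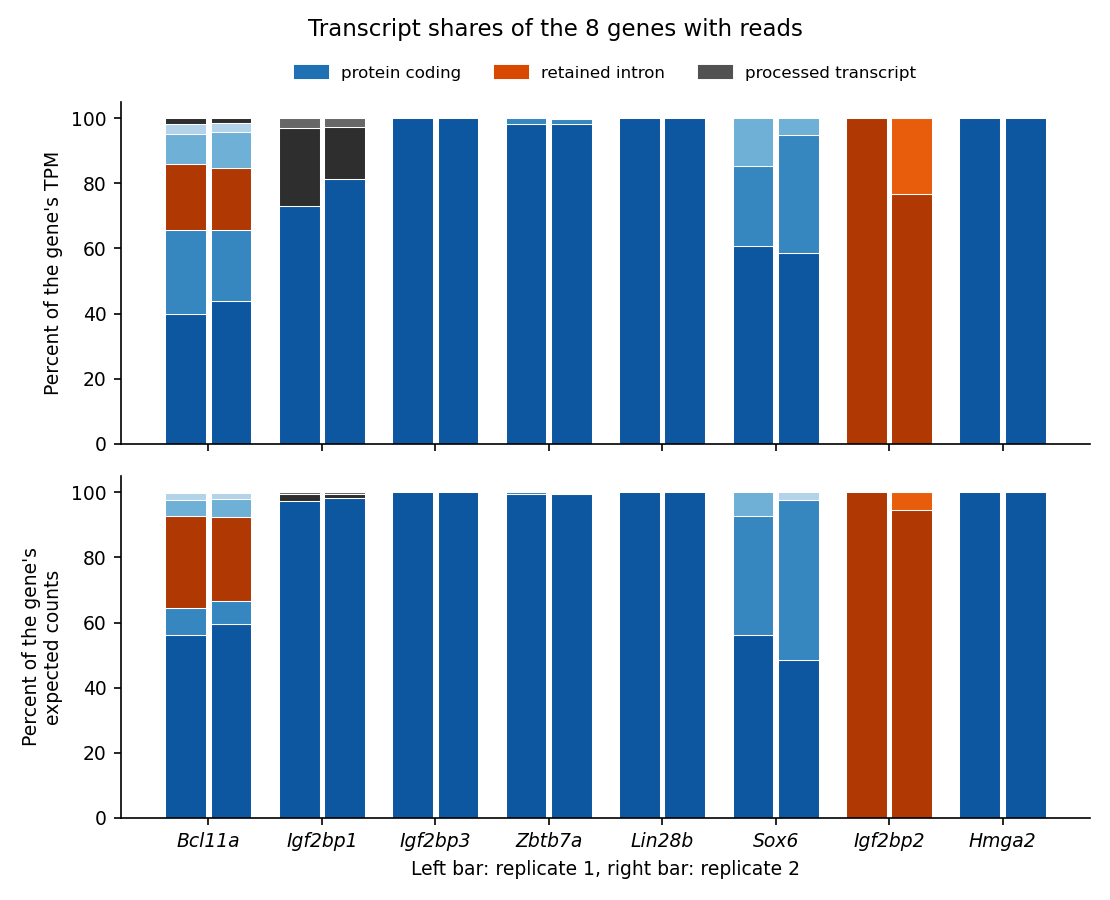
Share of each transcript in its gene, as percent of TPM (top) and percent of expected counts (bottom), with replicate 1 left and replicate 2 right for each gene and colours for the annotated class. Bcl11a is divided among 6 forms, Igf2bp3, Lin28b and Hmga2 rest on 1, and Igf2bp2 is drawn wholly from retained-intron forms.

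Igf2bp1-201, its 1 coding form of 577 codons, held 73.1% and 81.2% of the gene's TPM but 97.3% and 98.3% of its counts. The rest of the TPM lay mostly on Igf2bp1-202, a form without a coding sequence and 690 nt long, from 104 and 65.9 counts. Taken alone, the coding form of Igf2bp1 had 16.84 and 18.71 TPM, below the coding forms of Bcl11a together (19.97 and 21.40). It stood above the long forms Bcl11a-202 (10.24 and 11.79) and Bcl11a-201 (0.85 and 0.76). The rest of the Bcl11a coding sum came from the short Bcl11a-203 and Bcl11a-204. Igf2bp3 and Lin28b each have a single annotated form, of 579 and 271 codons, and Zbtb7a-201 (569 codons) held 98.3% and 98.1% of its gene.

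Sox6-205 (787 codons) led Sox6 with 60.6% and 58.5% of TPM. The remainder moved between forms: Sox6-202 held 0% in replicate 1 and 36.4% in replicate 2, Sox6-204 held 24.7% and 0%, and Sox6-203 held 14.7% and 5.15%. Igf2bp2 had 0 counts on both of its coding forms in both libraries. Its counts lay on retained-intron forms, Igf2bp2-207 with 24 and 52 and Igf2bp2-203 with 0 and 3, while the posterior mean estimate gave Igf2bp2-207 30.9% and 43.9% of TPM and the 2 coding forms 5.16% and 2.74% (Igf2bp2-201) and 4.4% and 3.06% (Igf2bp2-202). All Hmga2 counts lay on Hmga2-201 (108 codons), although the posterior mean estimate gave it 50.4% and 56.1%.

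Shared reads between family members were not visible at the gene level. The posterior SD of the count, which is above 0 where reads are shared out between genes, was 0 in both libraries for 8 of the 9 genes, and 0.32 counts in replicate 2 for Igf2bp1. The longest identical stretch was 29 nt between Igf2bp1 and Igf2bp2, 28 nt between Igf2bp2 and Igf2bp3 and 20 nt between Lin28a and Lin28b. On the opposite strand, Malsu1 (7.17 and 6.13 TPM, from 449 and 299 counts) shares 1529 exon bases with Igf2bp3, at the end of its 3′ UTR. The strand setting of the counting is not given in the sources used here, and without it reads from that stretch cannot be told apart. Gm29202 shares 43 bases with Igf2bp1 and had 27 and 14 counts, and the opposite-strand genes with values over Bcl11a, Sox6, Hmga2 and Lin28a had at most 1 count.

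Globin genes of the alpha and beta clusters were read beside Bcl11a and Zbtb7a, whose proteins act on the beta-globin locus. Of 8 listed, 4 were detected, against 40.2% of nuclear protein-coding genes. They were the adult genes Hbb-bs (1001 ± 10.3 TPM), Hba-a2 (159 ± 4.14), Hba-a1 (121 ± 7.53) and Hbb-bt (44.7 ± 8.70; SD, n = 2). Their near-identical copies make the split within each pair uncertain. Of the early genes, Hbb-bh1 had 2.21 and 0.78 TPM, from 36 and 12 counts, while no read fell on Hba-x, Hbb-y or Hbb-bh2.

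**Figure D5:**
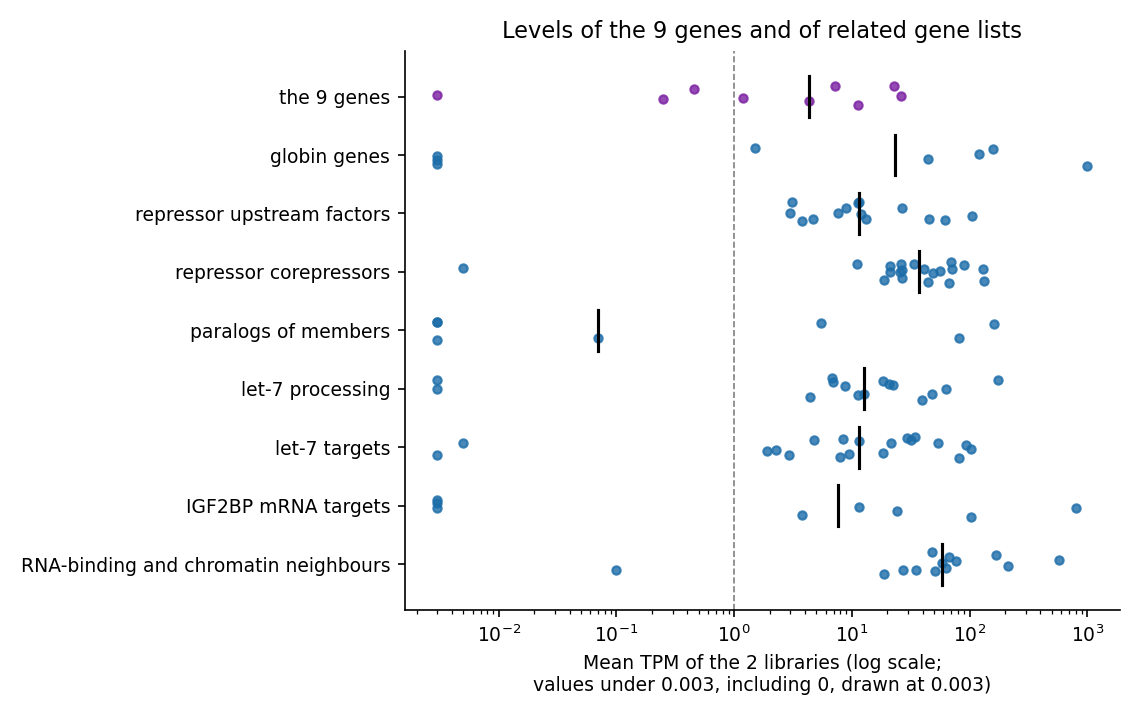
Mean TPM of both libraries, on a log axis, for the 9 genes (purple) and for 8 lists of related genes (blue), with a black bar at each median and a dashed line at TPM 1. All factors upstream of the repressors lie right of the line, and 3 of the 9 genes lie left of it.

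All 14 listed factors that act upstream of the repressors or beside them were detected, against 40.2% of nuclear protein-coding genes. This list and the others were chosen with earlier results of these data known, so their detected shares are descriptive only. The median of the 14 factors was 11.4 TPM. The highest were Myb (104.85 ± 8.73 TPM), a progenitor factor, Gata1 (61.6 ± 5.74), Ikzf1 (45.5 ± 0.672) and Klf1 (26.9 ± 2.98; SD, n = 2), which activates Bcl11a and Zbtb7a. Reads on Gata1 do not tell the restored gene from the disrupted one. The lowest were Nfix (3.13 ± 1.48) and Nr2c1 (2.995 ± 0.233), which encodes TR2, a nuclear receptor of a complex that represses embryonic globin genes. Hic2, a repressor of Bcl11a in human fetal erythroblasts, had 4.62 and 4.8 TPM, well below the 25.61 and 26.97 of Bcl11a. It is named here although it was not among the highest or lowest, and was chosen after its values were seen.

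Of 20 subunits of the corepressors that BCL11A and ZBTB7A recruit, 19 were detected, against 40.2% of nuclear protein-coding genes. Their median TPM was 37.3. Ncor1 (134 ± 20.4 TPM), the NuRD histone-binding subunit Rbbp7 (129 ± 0.0778), the methyl-CpG reader Mbd2 (89.1 ± 1.07) and the NuRD remodeller Chd4 (70.5 ± 2.13) were highest. Mbd3 was the lowest detected (11.1 ± 1.09; SD, n = 2). In paralogs of the 9 genes, 3 of 7 were detected, close to the 40.2% of all nuclear protein-coding genes. Zbtb7b, the T-cell relative of Zbtb7a, had 5.49 ± 0.75 TPM, beside 7.17 ± 0.502 for Zbtb7a. Bcl11b, Zbtb7c and Sox5 had no read, and Sox13 had 12 and 2 counts. Hmga1 (81.9 ± 10.2 TPM) and Hmga1b (161 ± 1.86; SD, n = 2) stood above Hmga2 (0.250 ± 0.0707), although their split is uncertain because the copies are nearly identical.

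Of 15 genes that make, load or destroy let-7, 13 were detected, against 40.2% of nuclear protein-coding genes. Their median TPM was 12.7. Ddx5 (174 ± 9.60 TPM), the terminal uridylyl transferase Tut4 (63.0 ± 1.96), which LIN28 recruits to let-7 precursors, Ago2 (47.9 ± 0.792) and the nuclease Drosha (39.6 ± 1.75; SD, n = 2) were highest. Ago4 and Trim71 had no read. Of 19 other known let-7 targets 16 held a seed match, against 14.9% of genes with a 3′ UTR, and 17 were detected, against 40.2%. These 19 genes were listed as known targets, so the share with a match is no independent test. It was not matched for UTR length either. Their median TPM was 11.6. Myc (103 ± 4.79), Ccnd2 (92.8 ± 0.382) and Hmga1 (81.9 ± 10.2; SD, n = 2) were highest, Ccnd1 had 0 and 1 count, and Acvr1c had no read. The most matches lay in Nr6a1, with 8.

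Of 8 RNAs known to be bound by IGF2BP proteins 5 were detected, against 40.2% of nuclear protein-coding genes. Their median TPM was 7.67. Actb, the first zipcode mRNA, had 808 ± 22.8 TPM, Myc 103 ± 4.79 (SD, n = 2) and Cd44 24.34 in both libraries. Igf2, which gave the family its name, had no read, nor did H19 and Gli1. Of 13 RNA-binding partners and neighbours 12 were detected, against the same 40.2%, with a median TPM of 58.4. Ybx1 (574 ± 14.4), Ybx3 (211 ± 18.0), Cnbp (169 ± 7.83) and Dhx9 (76.2 ± 4.33) were highest, and Elavl1 (18.7 ± 1.48; SD, n = 2) and Ybx2 (3 counts in replicate 2 and 0 in replicate 1) were lowest. Igf2bp1, at 23.04 TPM in both libraries, lay above Elavl1 (17.66 and 19.76). The coding form of Igf2bp1 alone (16.84 and 18.71) lay below the whole-gene value of Elavl1, which was not split into forms here.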

How the data were processed

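Total RNA-seq of 2 libraries was analysed from gene and transcript tables, 1 of each per library. Per the file headers, the authors gave each feature an expected count (estimated reads, without normalization), a TPM value (per effective length, over all listed features) and an FPKM value (per kilobase and library size). The share of each transcript in its gene was deposited in percent of TPM. The deposited notes give mm10 and GENCODE M4. Not given in the sources used here are aligner, counter, strand setting and the level of the credibility interval. Names, coordinates and 3′ UTRs came from GENCODE M21 (mm10), which matched 42462 of 43346 genes by identifier.

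Values are the mean ± SD of both libraries. With 1 group there is no contrast and no p-value. Log2 ratios were taken on TPM + 0.1 and so come out too small for genes at low levels. No molecular identifiers are recorded for the reads, so intervals (exact Poisson, 95%) and floors of 3 counts cover counting error only. Nothing in the labels beyond the term biological replicate tells how the cultures were separated. The genes named were all 9 members, up to 4 highest and 2 lowest of each list, transcripts with a share of 10% or more, and level neighbours, of which a few are left out. Others were chosen after their values were seen, and members and the 10 lists were chosen with earlier results of these data known. Detection and ratios were tested on simulated data. Alternatives changed threshold, scaling, unit, pseudocount and estimate, and left out each replicate. Tools were scipy 1.17.1, numpy 2.4.6, pandas 2.3.3 and matplotlib 3.10.9 under Python 3.11.15.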

Additional observations from a re-analysis of the deposited data

How the results depend on the processing

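The counts of detected genes, for the 9 genes and for the 8 lists of related genes, stayed within 1.5 times in all 54 alternatives. The widest changes came at a threshold of 5 TPM, from 6 to 4 of the 9 genes and from 3 to 2 of the paralogs. Leaving out a replicate can only hold or raise these counts, because detection needs both libraries. Of the balances between genes, 3 of 16 alternatives moved by 1 SD or more, all by a change of unit or estimate. Leaving out a replicate could not move a balance that far, because either of 2 values lies within 1 SD of their mean. Those alternatives, among the 13 that moved less, say nothing about stability. The share of Bcl11a in Bcl11a and Zbtb7a was 73.0% on expected counts, without division by length, against 78.6% on TPM. On posterior mean TPM, the share of Igf2bp2 in the IGF2BP genes was 2.40% against 1.30%, and that of Lin28b in the LIN28 genes was 93.5% against 100%. The posterior estimate gives a level above 0 to genes with no read, and with it Lin28a passes Hmga2 in the order of levels. The log2 ratio of Igf2bp2 was 0.46 with a pseudocount of 1, against 1.26 with 0.1. No paired analysis was possible because the libraries form 1 group. Depth limits Igf2bp2, Hmga2 and Lin28a most, with 24 and 55, 36 and 22, and 0 counts.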

Other observations

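Some genes of the lists had unlike values in the 2 libraries and were chosen after those values were seen. Mpo, a granulocyte enzyme, had 1 count in replicate 1 and 70 in replicate 2, and Elane, a protease of the same granules, had 0 and 17. Pf4 had 18.96 and 10.54 TPM, Nfix had 4.17 and 2.08 TPM, and Nr6a1 had 1.36 and 2.48 TPM. The first 8mer of Igf2bp1 and that of Igf2bp2 each had a 7mer-A1 close behind it, at 1734 nt after 1715 nt in Igf2bp1 and at 1330 nt after 1313 nt in Igf2bp2, counted from the stop codon.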
